A study of Mus musculus with 22 samples.

Results

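The genes described here are 9 members of the tetraspanin family, Cd9, Cd37, Cd53, Cd63, Cd81, Cd82, Cd151, Tspan3 and Tspan4, in microglia sorted from the mouse retina. They were taken as a list by gene symbol, chosen with earlier results of these data known, and are 9 of the 35596 genes to which the quantified transcripts belong. Tetraspanins are small proteins that cross the membrane several times and gather integrins, proteases, immunoglobulin-family receptors and one another into patches of membrane. Cd63 is carried mainly by late endosomes, lysosomes and the vesicles shed from them, whereas Cd9, Cd81, Cd82 and Cd151 are found mostly at the cell surface, and Cd37 and Cd53 are largely limited to cells of the haematopoietic lineage. Cd9 and Cd63 are also among the genes often used to describe activated, disease-associated microglia.

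All mice, 12 weeks old, received apoptotic neurons into the vitreous, and retinas were taken 24 h later, per the header of the deposited FPKM table. The libraries fall into 4 groups: Apoe-/- phagocytic (6 pools), Apoe-/- non-phagocytic (6 pools), WT phagocytic (5 pools) and WT non-phagocytic (5 pools), where the WT strain is given as C57BL/6 and the strain of the knockout only as Apoe KO. The gate was CD11b+, Ly6c- and Fcrls+, and detection of Alexa488 divided these cells into the phagocytic and the non-phagocytic sort. Phagocytic cells are those called so by this signal. Each library is a pool of 5 to 6 retinas of 1 sex and 1 genotype, from 100 to 500 sorted cells, so each pool is 1 data point. The comparisons ask how tetraspanin RNA differs between cells that took up dead neurons and cells that did not, in each genotype, and whether loss of Apoe, the lipid carrier used by microglia, alters those levels.

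Depth was 1133577 to 3649436 estimated reads per library, and 12415 genes passed the filter on low counts, among them all 9 tetraspanins. Apoe itself was measured at 8.91 to 34.9 CPM (read counts brought to 1 scale with TMM) in Apoe-/- phagocytic and 7.02 to 17.6 CPM in Apoe-/- non-phagocytic libraries, against 1317 to 5145 CPM in WT phagocytic and 869 to 1604 CPM in WT non-phagocytic libraries, so all 22 libraries matched their genotype label. Of the genes of the gate, Itgam (CD11b) was at 211 to 889.99 CPM and Fcrls at 132 to 931 CPM over all libraries, and Ly6c1 at 0 to 4.18 CPM, while Ly6c2 reached 72.7 CPM in a WT phagocytic library. All 10 microglia markers were detected in every group, and none was at 0 throughout. Some libraries stand apart. WT pool 4 had the lowest summed microglia marker level of its genotype in both sorts and the highest monocyte marker level of all, 3703 CPM in the phagocytic and 3291 CPM in the non-phagocytic library. Apoe-/- non-phagocytic pools 2 and 5 had the largest share of reads on 12 satellite-like predicted genes, 51.6% and 47.5%, against 9.12% to 36.8% in the others. The Y-linked genes Ddx3y and Eif2s3y summed to 43.7 to 99.6 CPM in 7 pools and to at most 2.70 CPM in both libraries of Apoe-/- pools 4, 5 and 6 and of WT pool 5, so the sorts of a pool number matched in this respect, and these 4 pools lack the Y-linked RNA of the rest. The labels give neither the sex of a pool nor whether libraries of 1 number came from the same retinas, so comparisons within a number are a description. The labels do not say that pools of 1 group came from separate cohorts, and the p-values measure the spread between these pools.

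The promoters of Cd63, Cd81 and Cd37 are shown because these 3 genes carry the results: Cd63 is the member called with uptake, and Cd81 and Cd37 are the members whose levels correlated most between same-numbered libraries of both sorts. Each runs from 250 bases before to 50 bases after the RefSeq start (GRCm38.p6). Capitals mark the letters CACGTG (the E-box), TGACTCA (AP-1) or GAGGAAG (the core bound by PU.1), on either strand. CTTCCTC is the reverse complement of GAGGAAG.
Cd63, chr10:128909095-128909394, plus strand: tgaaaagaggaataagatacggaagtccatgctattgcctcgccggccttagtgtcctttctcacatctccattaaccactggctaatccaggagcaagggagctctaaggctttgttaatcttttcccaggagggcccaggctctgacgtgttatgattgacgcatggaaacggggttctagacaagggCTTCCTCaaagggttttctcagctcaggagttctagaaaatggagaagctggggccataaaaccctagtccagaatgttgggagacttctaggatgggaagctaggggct
Cd81, chr7:143052500-143052799, plus strand: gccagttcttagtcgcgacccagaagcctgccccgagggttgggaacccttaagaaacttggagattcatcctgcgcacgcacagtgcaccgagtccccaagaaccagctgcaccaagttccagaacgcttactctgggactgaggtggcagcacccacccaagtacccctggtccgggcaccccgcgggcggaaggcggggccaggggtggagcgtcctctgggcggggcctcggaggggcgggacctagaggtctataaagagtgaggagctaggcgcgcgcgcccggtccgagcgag
Cd37, chr7:45238790-45239089, minus strand: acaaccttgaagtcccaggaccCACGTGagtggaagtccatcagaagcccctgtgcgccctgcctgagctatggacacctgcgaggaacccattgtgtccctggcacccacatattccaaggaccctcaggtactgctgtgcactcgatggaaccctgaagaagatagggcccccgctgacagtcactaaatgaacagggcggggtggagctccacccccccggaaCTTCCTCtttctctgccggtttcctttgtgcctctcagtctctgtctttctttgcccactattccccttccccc
The core GAGGAAG stands once in the Cd63 window and once in that of Cd37, and CACGTG once in that of Cd37, while the Cd81 window holds none of the 3. Among 32851 mouse promoter windows of this length, GAGGAAG was found in 13.6%, CACGTG in 7.15% and TGACTCA in 5.20%, and no 2 of the marked matches overlap in these windows. Cd53 and 1 of the 4 windows of Cd82 also held GAGGAAG, and 1 of the windows of Tspan4 held CACGTG and TGACTCA. The start of Cd81-201, the main Cd81 transcript, lies 11 bases before the RefSeq start, whereas that of Cd63-201, which held a median of 97.7% of the Cd63 TPM, lies 354 bases after it, so the Cd63 window is not that of the main transcript.

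Across the 22 libraries the 9 genes covered a wide range of transcript levels. In deposited TPM, which corrects for length and allows genes to be compared, Cd81 had a median of 1323, followed by Cd9 with 576, Cd63 with 396, Cd53 with 237, Cd37 with 122, Tspan4 with 105, Tspan3 with 68.0, Cd82 with 36.1 and Cd151 with 14.2. Cd81, which sits on the surface of many cell types, macrophages included, was the top member in 21 of 22 libraries, and Cd63 was the top member only in WT phagocytic pool 4. The ranges of every pair of neighbours in this order overlapped over all libraries, but within a library the order was firmer. Cd81 was above Cd9 in 22 of 22 libraries, Cd63 above Cd53 in 22 of 22, Cd53 above Cd37 in 22 of 22 and Tspan4 above Tspan3 in 22 of 22, whereas Cd9 was above Cd63 in 14 of 22 and Cd37 above Tspan4 in 13 of 22. The median share of the 9-gene TPM held by Cd63 was 21.1% in Apoe-/- phagocytic libraries, against 10.04% in Apoe-/- non-phagocytic libraries, and for Cd81 it was 40.8% and 51.3% in the same 2 groups. In WT libraries Cd63 held 11.5% in phagocytic and 13.4% in non-phagocytic pools as a median.

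**Figure D1:**
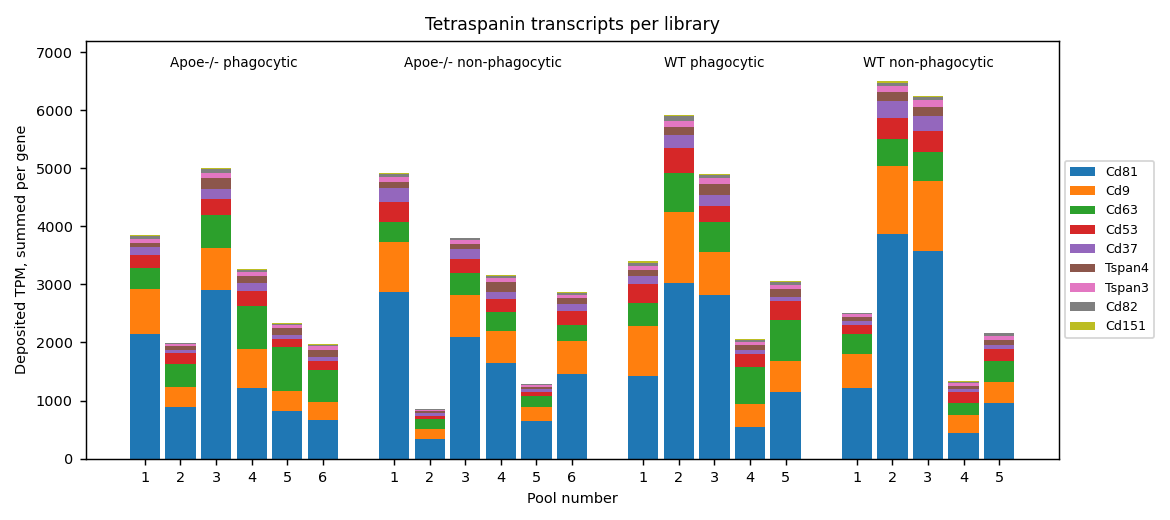
Stacked bars give the deposited TPM of the 9 tetraspanins in each of the 22 libraries, by group and pool number, and their height is the sum. The sum ran from 854 TPM in Apoe-/- non-phagocytic pool 2 to 6504 TPM in WT non-phagocytic pool 2, and most of that range is Cd81 and Cd9. The lowest library had 51.6% of its reads on satellite-like genes, and TPM, unlike CPM, was not scaled with TMM. In CPM its sum was 2389, above the lowest, 2090 in WT non-phagocytic pool 4. The highest was 7361 CPM in WT phagocytic pool 2.

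Cd63 (chr10:128900989-128912822, plus strand, GRCm38), the tetraspanin of late endosomes and lysosomes, was the only member that passed the test in any comparison. In Apoe-/- pools its level was 375 CPM at the lowest, 645 CPM at the median and 845 CPM at the highest in phagocytic libraries, against 271, 334 and 381 CPM in non-phagocytic libraries. Of the 6 phagocytic libraries 5 lay above every non-phagocytic one, and pool 1, at 375 CPM, lay within their range. Cd63 rose with uptake in Apoe-/- microglia by 0.93 ± 0.20 on the log2 scale (SE; 95% interval 0.52 to 1.34), a 1.91-fold difference, with an adjusted p of 0.0245 in edgeR's quasi-likelihood test. The group means were 623 ± 172 CPM in Apoe-/- phagocytic libraries and 326 ± 46.3 CPM in the Apoe-/- non-phagocytic (SD, n = 6 each). It was thus 1 of 9 tetraspanins called in this comparison, where 0.403% of all genes tested were called higher and 0.467% called in either direction. For all 6 pool numbers the phagocytic library was above the non-phagocytic library of the same number, which held for 4.71% of all genes.

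In WT pools Cd63 had the same direction but did not pass. Its levels were 379.9, 608, 475, 665 and 683 CPM in phagocytic pools 1 to 5, against 414, 328, 350.4, 239.6 and 395 CPM in non-phagocytic pools 1 to 5. The groups overlapped through phagocytic pool 1, and the other 4 phagocytic libraries were above all 5 non-phagocytic ones. The difference was 0.70 ± 0.22 on the log2 scale (interval 0.26 to 1.15), with an unadjusted p of 0.00326 and an adjusted p of 0.272 in edgeR. None of the 9 tetraspanins was called in WT, where 0.209% of all genes were. The Apoe-/- difference minus the WT difference was 0.23 ± 0.29 on the log2 scale (interval -0.37 to 0.83; edgeR adjusted p 1.00), so a larger change in the knockout was not shown, and 0.0% of all genes were called in that test (301 genes, 2.42%, had an unadjusted p under 0.05, and DESeq2 called 2).

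The size of the Cd63 difference varied between pool numbers. In Apoe-/- pools 4, 5 and 6 the phagocytic library had 2.50, 2.37 and 2.73 times the Cd63 level of the same-numbered non-phagocytic library, against 1.203, 1.56 and 1.36 times in pools 1, 2 and 3. The higher 3 are the pools in which Y-linked RNA was near 0. In WT the ratio was 1.73 in pool 5, the only WT pool with Y-linked RNA near 0, and 0.92, 1.86, 1.36 and 2.77 in pools 1 to 4. The part of sex in the size of the difference was not tested, since pool order and sex cannot be told apart within Apoe-/- pools. With the Y-linked level as a covariate, a fit chosen after these values were seen, the Apoe-/- difference was 0.92 with an adjusted p of 0.0149.

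The Cd63 call in Apoe-/- microglia depended on single libraries. Without phagocytic pool 4, 5 or 6, or without non-phagocytic pool 1, 4 or 6, the difference stayed between 0.82 and 0.92 but its adjusted p was 0.0622 to 0.108, and without non-phagocytic pools 2 and 5 together it was 1.01 with an adjusted p of 0.0759. Markers of border-associated macrophages, a cell type the gate could also hold, moved with the sort as well. All 8 of the 10 listed markers that were tested had a positive difference in both genotypes, 3 were called in Apoe-/- (Pf4, F13a1 and Stab1) and 2 in WT (Pf4 and F13a1). Their summed level was 413 to 1077 CPM in Apoe-/- phagocytic against 193 to 327 CPM in Apoe-/- non-phagocytic libraries, and 505 to 993 CPM in WT phagocytic against 261 to 375 CPM in WT non-phagocytic libraries. Of the 8 dendritic cell markers tested, none was positive and 1 was called lower in each genotype, with summed levels of 96.2 to 429 CPM in Apoe-/- phagocytic against 417 to 639 CPM in Apoe-/- non-phagocytic libraries, and 161 to 409.6 CPM in WT phagocytic against 481 to 718 CPM in WT non-phagocytic libraries. Of the 10 microglia markers none was called, and 1 was positive in Apoe-/- and 3 in WT. Among them Siglech is also in the dendritic list. Its Apoe-/- mean was 366 CPM without uptake but 191 CPM with it, beside median dendritic sums of 526 and 283 CPM. For WT the Siglech means were 356 and 226 CPM in the same order, beside sums of 653 and 335 CPM. Much of each dendritic sum was therefore this 1 gene, which was also lower in the phagocytic sort. Of the 10 monocyte markers, 5 were positive and none was called in Apoe-/-, while 6 were positive and 1 was called higher in WT. Their summed level was 430 to 1298 CPM in Apoe-/- phagocytic against 529 to 1226 CPM in Apoe-/- non-phagocytic libraries. In WT it was 1145 to 3703 CPM in phagocytic against 634 to 3291 CPM in non-phagocytic libraries. Beside the counts of these lists, the shares over all genes were 47.7% positive and 0.467% called in Apoe-/-, and 49.2% and 0.209% in WT. No marker of these lists was at 0 in all libraries, and the part of these cells in the Cd63 difference was not tested. In bulk libraries fewer cells of a type and less RNA per cell cannot be told apart.

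**Figure D2:**
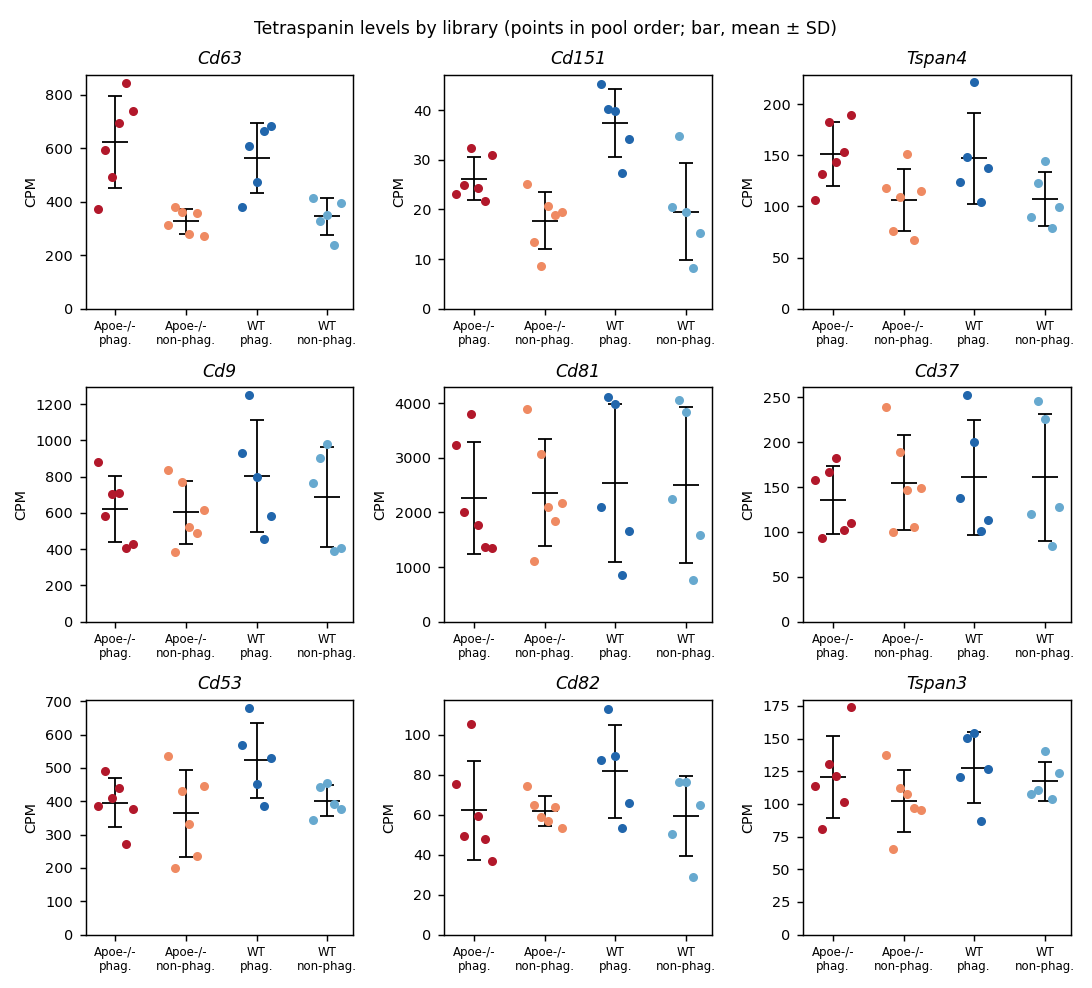
Each panel gives the CPM of 1 tetraspanin in the 22 libraries, with points in pool order and a bar for the mean ± SD of each of the 4 groups. The Cd63 points of Apoe-/- phagocytic libraries lie between 375 and 845 CPM and those of Apoe-/- non-phagocytic libraries between 271 and 381 CPM, while the 4 groups of Cd81 span nearly the same range.

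Cd151 (chr7:141467392-141471473, plus strand), which binds laminin receptors of the integrin family, was the least abundant member and had the largest log2 difference of the 9 with uptake in WT, without passing the test. In WT pools it was at 45.3, 40.2, 39.9, 27.4 and 34.2 CPM in phagocytic libraries 1 to 5, against 20.4, 34.8, 19.4, 8.13 and 15.2 CPM in non-phagocytic libraries 1 to 5. The phagocytic library was above the same-numbered non-phagocytic one for 5 of 5 numbers, and the groups overlapped only because non-phagocytic pool 2 reached 34.8 CPM. The log2 difference was 0.92 ± 0.31 (interval 0.30 to 1.55; unadjusted p 0.00552, adjusted p 0.354 in edgeR). In Apoe-/- pools the lowest, median and highest levels were 21.6, 24.5 and 32.3 CPM in phagocytic and 8.71, 19.2 and 25.0 CPM in non-phagocytic libraries, a log2 difference of 0.56 ± 0.29 (adjusted p 0.532). Only 15 to 125 reads per library fell on Cd151, the fewest of the 9.

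Tspan4, a tetraspanin of retraction fibres and the migrasomes that form on them, differed in the same direction in both genotypes by a similar amount. It was at 124, 148, 221, 104 and 138 CPM in WT phagocytic libraries, against 90.2, 123, 144, 78.6 and 99.7 CPM in WT non-phagocytic libraries, and was above the same-numbered non-phagocytic library for 5 of 5 numbers. Its levels in Apoe-/- pools were 106, 148 and 189 CPM (lowest, median, highest) in phagocytic and 67.3, 112 and 151 CPM in non-phagocytic libraries, with the phagocytic library higher for 4 of 6 numbers. The log2 differences were 0.50 ± 0.22 in Apoe-/- (unadjusted p 0.0284, adjusted p 0.425) and 0.45 ± 0.23 in WT (unadjusted p 0.0648, adjusted p 0.677), and neither passed edgeR's test. The groups overlapped in both genotypes. Tspan4 (chr7:141475240-141493427, plus strand) overlaps at its 3' end with Chid1 on the opposite strand, and the strand of the reads is not given in the sources used here, so some of its reads may belong to that gene.

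The surface members Cd9 and Cd81 showed no detectable difference with uptake. Cd9 (chr6:125460266-125494791, minus strand), which restrains the fusion of macrophages in mice, was at 406, 644 and 882 CPM (lowest, median, highest) in Apoe-/- phagocytic and 385, 569.7 and 838 CPM in Apoe-/- non-phagocytic libraries. In WT it was at 932, 1249.6, 799, 454 and 584 CPM in phagocytic libraries, against 765, 903, 983, 391 and 407 CPM in non-phagocytic libraries. The log2 difference of Cd9 was 0.04 in Apoe-/- (interval -0.52 to 0.59) and 0.22 in WT (interval -0.39 to 0.83), so a change of up to about the size of that in Cd63 lies within the WT interval. Cd81 (chr7:143052739-143067934, plus strand) was at 1357, 1889 and 3800.4 CPM in Apoe-/- phagocytic and 1102, 2137 and 3891 CPM in Apoe-/- non-phagocytic libraries, and at 853 to 4120 CPM in WT phagocytic and 764 to 4053 CPM in WT non-phagocytic libraries. Its log2 difference was -0.07 ± 0.39 in Apoe-/- and 0.03 ± 0.43 in WT, with intervals of -0.87 to 0.74 and -0.85 to 0.90.

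Of the leukocyte members, Cd53 (chr3:106759921-106790149, minus strand) was at 568, 679, 452, 386 and 530.3 CPM in WT phagocytic libraries, against 344, 442, 454, 392 and 377 CPM in WT non-phagocytic libraries. The phagocytic libraries had 3 values above all non-phagocytic ones, and the log2 difference was 0.38 ± 0.23 (adjusted p 0.759 in edgeR). In Apoe-/- pools Cd53 differed by 0.12 ± 0.21, with 272 to 492 CPM in phagocytic and 201 to 536 CPM in non-phagocytic libraries. Cd37 (chr7:45233632-45239115, minus strand) had log2 differences of -0.20 ± 0.28 in Apoe-/- and 0.00 ± 0.30 in WT, at 92.8 to 182 CPM in Apoe-/- phagocytic, 100.0 to 239.6 CPM in Apoe-/- non-phagocytic, 101 to 253 CPM in WT phagocytic and 84.0 to 246 CPM in WT non-phagocytic libraries. Cd82 (chr2:93419111-93463140, minus strand), first known as a suppressor of metastasis in human tumours, was higher in the phagocytic library for 3 of 6 Apoe-/- and 5 of 5 WT pool numbers, with log2 differences of 0.02 ± 0.25 in Apoe-/- and 0.46 ± 0.27 in WT. Tspan3 (chr9:56131725-56165477, minus strand), a widely expressed member, was at 80.9 to 174 CPM in Apoe-/- phagocytic, 65.5 to 138 CPM in Apoe-/- non-phagocytic, 86.8 to 154 CPM in WT phagocytic and 104 to 141 CPM in WT non-phagocytic libraries. It differed by 0.23 ± 0.19 in Apoe-/- and 0.12 ± 0.21 in WT.

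Set side by side, the 9 log2 differences with uptake ran from -0.20 (Cd37) to 0.93 (Cd63) in Apoe-/- and from 0.00 (Cd37) to 0.92 (Cd151) in WT. They were positive for 7 of 9 members in Apoe-/-, where 47.7% of all genes were positive (5 of 9 members with the share of satellite-like reads as a covariate), and for 8 of 9 in WT, where 49.2% were (7 of 9 members with RLE scaling, under which Cd81 was just below 0). Their median was 0.12 in Apoe-/- and 0.38 in WT, beside a median over all genes of -0.02 and -0.01 on the same scale. An unadjusted p under 0.05 was reached by Cd63 and Tspan4 in Apoe-/- and by Cd63 and Cd151 in WT, against 9.93% and 7.74% of all genes. Cd82, Cd151 and Tspan4 were higher in the phagocytic library for 5 of 5 WT pool numbers, as were 7.1% of all genes. The ranges of phagocytic and non-phagocytic libraries overlapped for all 9 members in both genotypes, whereas they did not overlap for 0.87% of all genes in Apoe-/- and 2.14% in WT.

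**Figure D3:**
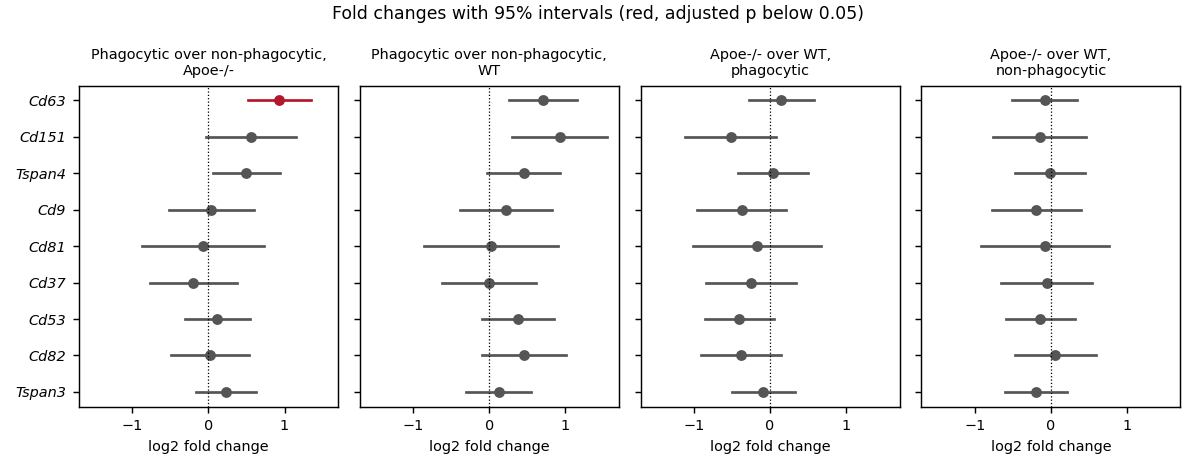
Points are edgeR log2 fold changes of the 9 tetraspanins and lines their 95% intervals, for phagocytic over non-phagocytic libraries in Apoe-/- and in WT and for Apoe-/- over WT in phagocytic and in non-phagocytic libraries. Only Cd63 in the Apoe-/- sort comparison (0.93, interval 0.52 to 1.34) has an adjusted p below 0.05.

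Loss of Apoe was not accompanied by a called difference in any of the 9 tetraspanins. Among all genes, 0.0322% were called between genotypes in phagocytic and 0.0161% in non-phagocytic libraries, and none of the 9 had an unadjusted p under 0.05 in either, against 6.62% and 3.8% of all genes. The log2 difference of Apoe-/- over WT was positive for 2 of 9 members in phagocytic and 1 of 9 in non-phagocytic libraries, where 49.5% and 49.7% of all genes were positive, with medians of -0.25 and -0.08. These directions were not stable: with the share of satellite-like reads as a covariate 5 of 9 and 7 of 9 were positive. Without Apoe-/- non-phagocytic pools 2 and 5, which hold the most such reads, 5 of 9 were positive in non-phagocytic libraries. With the Y-linked level as a covariate 2 of 9 were positive in phagocytic and 4 of 9 in non-phagocytic libraries. Pools with Y-linked RNA near 0 were unevenly split between genotypes: Apoe-/- pools 4, 5 and 6, and WT pool 5. Ranges of the genotypes overlapped for all 9 in both sorts (no overlap in 0.789% and 0.298% of all genes). The most marked value was that of Cd151 in phagocytic libraries, with 21.6, 24.5 and 32.3 CPM (lowest, median, highest) in Apoe-/- and 45.3, 40.2, 39.9, 27.4 and 34.2 CPM in WT. Of the 6 Apoe-/- libraries 4 lay below all WT libraries, and the log2 difference was -0.52 ± 0.29 (interval -1.11 to 0.08; adjusted p 0.798 in edgeR). Cd53 (-0.40 ± 0.22), Cd82 (-0.38 ± 0.26) and Cd9 (-0.37 ± 0.28) had similar values in phagocytic libraries, all with adjusted p-values of 0.798 to 0.823. Cd63 differed by 0.15 ± 0.21 between genotypes in phagocytic libraries, with 623 ± 172 CPM in Apoe-/- and 562 ± 131 CPM in WT (SD, n = 6 and 5; interval -0.28 to 0.57). In non-phagocytic libraries it differed by -0.08 ± 0.21, with 326 ± 46.3 CPM in Apoe-/- and 345 ± 68.4 CPM in WT (interval -0.51 to 0.34). The 9 log2 values in non-phagocytic libraries lay between -0.19 (Tspan3) and 0.05 (Cd82). Monocyte markers differed between genotypes too, with 10 of 10 negative and none called in phagocytic libraries, and summed levels of 429.8 to 1298 CPM in Apoe-/- phagocytic against 1145 to 3703 CPM in WT phagocytic libraries, and their part in these values was not tested.

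The spread between pools was large for some members and small for others, and for several it correlated between libraries of the same number. The labels do not say that equal numbers share retinas, so these values are a description and not a paired design. Levels were expressed as deviations of log2 CPM from the group mean, and the phagocytic library of each of the 11 pool numbers was set against the non-phagocytic library of the same number, for all 9 genes. For Cd81 Pearson's r was 0.86 (permutation p 0.00072, adjusted over the 9 genes 0.00396) and Spearman's rho 0.84 (p 0.00221, adjusted 0.013), and r was 0.92 without the 2 pools farthest from the median. For Cd37 r was 0.87 (p 0.00088, adjusted 0.00396) and rho 0.83 (p 0.00288, adjusted 0.013), with r of 0.80 without the 2 farthest pools. For Cd81 and Cd37, high phagocytic libraries thus tended to carry the same numbers as high non-phagocytic ones. Cd9 had an r of 0.72 (p 0.0164, adjusted 0.0493) and a rho of 0.71 (p 0.0188, adjusted 0.0565), and its r without the 2 farthest pools was 0.56. For Cd63 r was -0.33 (p 0.327, adjusted 0.421) and rho -0.25 (p 0.452, adjusted 0.581), so no positive relation between the sorts was detected for it.

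The median r over all 12415 genes was 0.19, and 0.95% of them had an r at or above that of Cd81, 0.693% at or above that of Cd37 and 5.16% at or above that of Cd9. Within the 7 pools that held Y-linked RNA, r was 0.95 for Cd81, 0.97 for Cd37, 0.82 for Cd9 and -0.47 for Cd63. The other 4 pools are too few for a value of their own. Within the 6 Apoe-/- pools r was 0.60 for Cd81, 0.76 for Cd37 and 0.51 for Cd9, and WT has 5 pools, too few for a value.

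**Figure D4:**
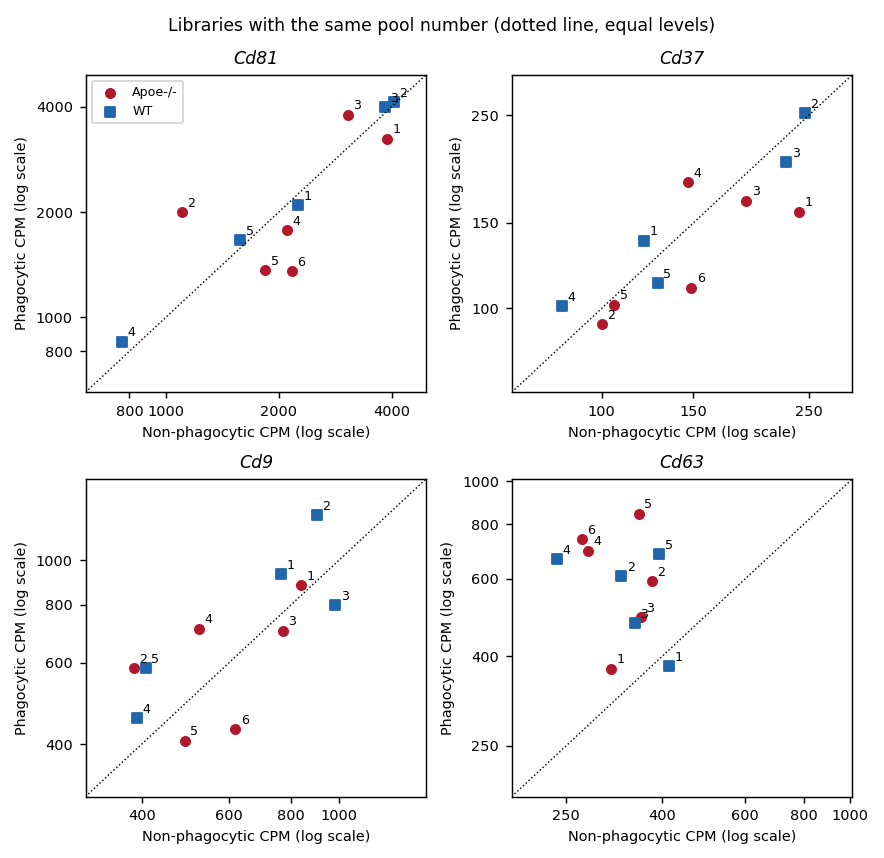
Each point is 1 pool number, with the CPM of the non-phagocytic library of that number on the horizontal and of the phagocytic library on the vertical log axis, for Cd81, Cd37, Cd9 and Cd63 in Apoe-/- (circles) and WT (squares). Cd81 and Cd37 lie along the dotted line of equal levels, whereas 10 of 11 Cd63 points lie above it.

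The levels of all 9 members in both sorts were also set against the summed level of the 10 microglia markers, P2ry12, Tmem119 and Cx3cr1 among them, a relation examined after the values had been seen. In phagocytic libraries that sum was 5283 to 16167 CPM in Apoe-/- and 5118 to 18523 CPM in WT, and in non-phagocytic libraries 7649.7 to 18855 CPM in Apoe-/- and 5425 to 20598 CPM in WT. As deviations from the group mean over the 11 libraries of each sort, Cd81 tracked it with r of 0.98 in phagocytic (rho 0.94) and 0.97 in non-phagocytic libraries (rho 0.96). Both r values had a permutation p of 1e-05, the smallest that 100000 permutations can give, and 6.0e-05 after adjustment over 18 relations, while the rho values had p of 7.0e-05 and 2.0e-05 (adjusted 0.000315 and 0.00018). Leaving out the 2 farthest pools gave r of 0.98 and 0.94, and the 7 pools with Y-linked RNA gave 0.99 and 0.98. At most 0.0725% of all genes had an r as high as Cd81 in either sort, where the 10 markers are themselves among the genes counted. Each pair of points shares a library and its scaling, and which cells carried the variable Cd81 was not tested.

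Cd9 had an r of 0.89 with the marker sum in phagocytic libraries (permutation p 0.00041, adjusted 0.00123; rho 0.80, p 0.00483, adjusted 0.0124), and 0.79 without the 2 farthest pools. In non-phagocytic libraries r was also 0.89 for Cd9 (p 0.00034, adjusted 0.00122; rho 0.92, p 0.00022, adjusted 0.000792), and 0.85 without the 2 farthest. Cd9 thus followed the marker level in both sorts. For Cd37 r was 0.78 in phagocytic libraries (permutation p 0.00757, adjusted 0.0151; rho 0.66, p 0.0308, adjusted 0.0555), and 0.68 without the 2 farthest pools. In non-phagocytic libraries r was 0.98 for Cd37, with and without the 2 farthest pools (rho 0.98; permutation p 1e-05 for both, adjusted 6.0e-05 and 0.00018). Cd82 had an r of 0.89 with the marker sum in phagocytic libraries (permutation p 0.00031, adjusted 0.00122; rho 0.95, p 7.0e-05, adjusted 0.000315; 0.91 without the 2 farthest). Its r was 0.76 in non-phagocytic libraries (p 0.00488, adjusted 0.011; rho 0.58, p 0.0658, adjusted 0.0858; 0.43 without the 2 farthest). The Cd82 value in non-phagocytic libraries thus leaned on those 2 pools. Cd53, Cd151, Tspan3 and Tspan4 had r of 0.27 to 0.61 in phagocytic libraries (adjusted permutation p 0.062 to 0.454; rho 0.19 to 0.57), and of -0.08 to 0.06 without the 2 farthest pools. In non-phagocytic libraries their r was 0.65 to 0.79 (adjusted permutation p 0.011 to 0.0409; rho 0.61 to 0.80), and 0.27 to 0.87 without the 2 farthest. Of the 9 members Cd63 alone had a negative r with the marker sum, in phagocytic libraries. There r was -0.70 (permutation p 0.0181, adjusted 0.0326) and rho -0.75 (p 0.00971, adjusted 0.0218), and r was -0.60 without the 2 farthest pools. In non-phagocytic libraries r was 0.12 (p 0.73, adjusted 0.73) and rho -0.15 (p 0.671, adjusted 0.671). The relation was -0.92 within the 6 Apoe-/- phagocytic pools and -0.44 within the 7 pools that held Y-linked RNA, so the value differed with the pools included. In phagocytic libraries 3.33% of all genes had an r at or below that of Cd63.

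**Figure D5:**
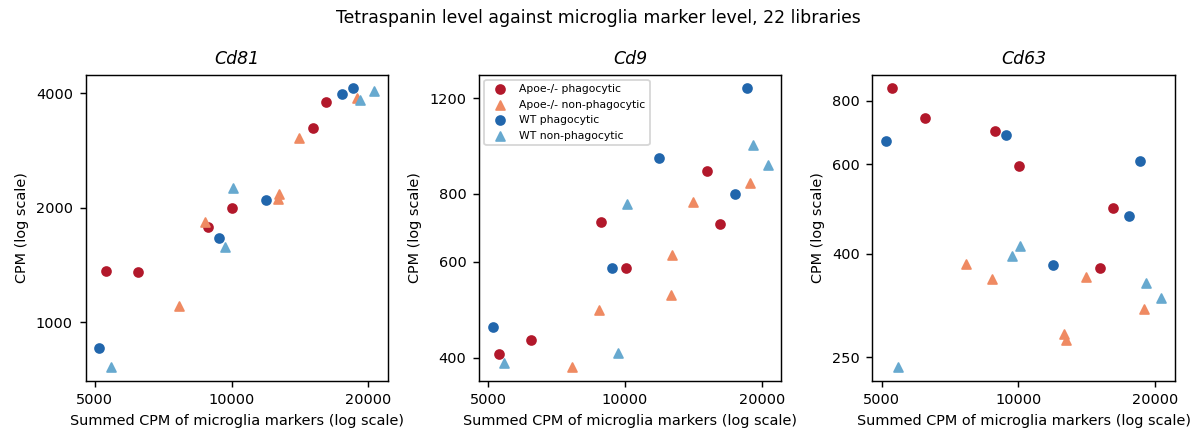
Points are the 22 libraries, with the summed CPM of 10 microglia markers on the horizontal and the CPM of Cd81, Cd9 or Cd63 on the vertical log axis, by group. Cd81 and Cd9 climb with the marker sum in all 4 groups, while Cd63 in phagocytic libraries (circles) is at 845 CPM at a marker sum of 5283 CPM (Apoe-/- pool 5) and at 375 CPM at 15146 CPM (Apoe-/- pool 1).

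By the root mean square difference of log2 CPM over the 22 libraries, each gene centred on its own mean, the genes nearest in pattern to Cd63 were Atp6v0b (0.30), Sra1 (0.31) and Psmb6 (0.31), where the median over all genes was 0.78 and Cd63's own deviation was 0.51. Atp6v0b, a subunit of the vacuolar proton pump, averaged 315 CPM in Apoe-/- phagocytic and 221 CPM in Apoe-/- non-phagocytic libraries, and 309 CPM in WT phagocytic and 241 CPM in WT non-phagocytic libraries, and none of the 3 was called in either genotype. The genes nearest to Cd9 were Dpysl2 (0.24), Pdia3 (0.25) and Anxa3 (0.26), against a median of 0.76 and a deviation of 0.49 for Cd9 itself.

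The proteins with which tetraspanins associate were followed through a list of 30 genes, 24 of which were tested. None was called in either sort comparison, where 0.467% of all genes were called in Apoe-/- and 0.209% in WT. Of the 24, 18 were positive in Apoe-/- and 20 in WT, against 47.7% and 49.2% of all genes, with median log2 differences of 0.34 and 0.37 beside -0.02 and -0.01 over all genes. The smallest p-values in Apoe-/- were those of Igsf8, the immunoglobulin-family partner of Cd9 and Cd81, and Pi4k2a, a lipid kinase bound by tetraspanins. Igsf8 was at 81.7 ± 29.2 CPM in Apoe-/- phagocytic libraries, against 48.6 ± 13.8 CPM in Apoe-/- non-phagocytic libraries (SD, n = 6 each; log2 difference 0.74 ± 0.23, adjusted p 0.201 in edgeR), and its WT log2 difference was 0.03. Pi4k2a had a log2 difference of 0.78 ± 0.27 in the same groups (adjusted p 0.251 in edgeR), with 66.2 ± 33.0 CPM in phagocytic libraries against 37.98 ± 10.8 CPM in the non-phagocytic. In WT they were those of Ptgfrn, another such partner of Cd9, and Mmp14, a membrane-bound protease that cuts collagen. Ptgfrn was at 15.9 ± 6.66 CPM in WT phagocytic and 5.50 ± 2.06 CPM in WT non-phagocytic libraries (SD, n = 5 each; log2 difference 1.54 ± 0.44, adjusted p 0.193 in edgeR), and in Apoe-/- its log2 difference was 0.42. Mmp14 was at 129 ± 13.1 CPM in WT phagocytic libraries, against 73.9 ± 23.2 CPM in WT non-phagocytic libraries, with non-overlapping ranges of 110.2 to 141 and 52.3 to 98.8 CPM (log2 difference 0.81 ± 0.28, adjusted p 0.363), where 2.14% of all genes had ranges that did not overlap. Between genotypes none of the 24 was called either, where 0.0322% of all genes were in phagocytic and 0.0161% in non-phagocytic libraries. Rac1, a small GTPase of the actin cytoskeleton, had the smallest p in phagocytic libraries (115 ± 33.4 CPM in Apoe-/- and 197 ± 47.8 CPM in WT; log2 difference -0.77 ± 0.23, adjusted p 0.426 in edgeR), followed by Ezr (-0.83 ± 0.40, adjusted p 0.748). In non-phagocytic libraries Igsf8 (-0.65 ± 0.24) and Itgb1 (-0.39 ± 0.22) had the smallest, with an adjusted p of 0.999. The Apoe-/- minus WT difference with uptake was 0.70 ± 0.34 for Igsf8 and -1.12 ± 0.59 for Ptgfrn (adjusted p 1.00 for both in edgeR).

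Of 30 genes of the late endosome and of vesicle release, the compartment of Cd63, 28 were tested, and 1 was called in each sort comparison, where 0.467% of all genes were called in Apoe-/- and 0.209% in WT. It was Lamp1 in both, the abundant glycoprotein of the lysosomal membrane. Lamp1 was at 360.5 ± 134 CPM in Apoe-/- phagocytic and 181 ± 22.5 CPM in Apoe-/- non-phagocytic libraries (SD, n = 6 each), and it rose by 0.99 ± 0.21 on the log2 scale (edgeR adjusted p 0.0218). In WT it was at 515 ± 120.0 CPM in phagocytic libraries, against 204 ± 24.9 CPM in the non-phagocytic (SD, n = 5 each) and rose by 1.33 ± 0.23 (edgeR adjusted p 0.00694). Of the 28, 17 were positive in Apoe-/- and 21 in WT, against 47.7% and 49.2% of all genes, with median log2 differences of 0.07 and 0.23 beside -0.02 and -0.01 over all genes. None was called between genotypes, where 0.0322% of all genes were in phagocytic and 0.0161% in non-phagocytic libraries. The Lamp1 difference in Apoe-/- minus that in WT was -0.34 ± 0.30 on the log2 scale (adjusted p 1.00), so the genotypes were not shown to differ in it. The smallest p-values between genotypes were those of Lamp1 (-0.52 ± 0.21, adjusted p 0.694) and Tsg101 (-0.44, adjusted p 0.694) in phagocytic libraries and of Rab27a (0.49) and Ap3d1 (-0.22) in non-phagocytic libraries. For the Apoe-/- minus WT difference with uptake they were those of Tsg101 (-0.49) and Ap3s1 (-0.78), both with an adjusted p of 1.00.

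Of 22 further tetraspanins, 14 were tested and none was called in any comparison, against 0.467% of all genes with uptake in Apoe-/-, 0.209% in WT, and 0.0322% and 0.0161% between genotypes in phagocytic and non-phagocytic libraries. At these shares of all genes a count of 0 in 14 is no result about them. Their log2 differences with uptake were positive for 4 of 14 in Apoe-/- and 6 of 14 in WT, against 47.7% and 49.2% of all genes, with medians of -0.32 and -0.12 beside -0.02 and -0.01. Tspan13 had the smallest p in Apoe-/- and was lower in the phagocytic libraries of both genotypes without passing, at 33.3 ± 13.9 CPM in Apoe-/- phagocytic against 53.0 ± 13.7 CPM in Apoe-/- non-phagocytic libraries (log2 difference -0.66 ± 0.29, adjusted p 0.433 in edgeR, n = 6 each) and a WT log2 difference of -0.58 ± 0.32. Tspan32, which restrains T cell growth in mice, followed in Apoe-/- (-0.52 ± 0.29, adjusted p 0.581), and Tspan5, of the group that escorts the protease Adam10, in WT (1.35 ± 0.63, adjusted p 0.613) at a mean of 8.97 CPM in WT phagocytic and 3.396 CPM in WT non-phagocytic libraries. Between genotypes the smallest p-values were those of Tspan17 (-2.37 ± 0.97, adjusted p 0.694) and Tspan33 (0.46 ± 0.39) in phagocytic libraries and of Tspan5 (1.55 ± 0.62) and Tspan9 (-1.23 ± 0.70) in non-phagocytic libraries. Tspan5 (-2.06 ± 0.84) and Tspan9 (1.45 ± 0.99) also had the smallest p for the Apoe-/- minus WT difference with uptake, with an adjusted p of 1.00 in edgeR.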

How the data were processed

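RNA was measured in 22 pools of sorted retinal microglia with SMART-Seq2, a full-length method, per the file headers. The authors deposited, per the file headers, TPM and an estimated count for each of 116248 transcripts in every library, and a gene table of FPKM values that keeps genes above 5, used here only in an alternative. Salmon 1.4.0, R 4.0.3, DESeq2 1.30.1 and build mm10 appear in the submitters' processing notes, which do not say what each was used for, and trimming and strand were not stated there.

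Transcripts were matched to GENCODE release M21 (GRCm38; 176 did not match and held 0.118% to 0.262% of reads and were left out). Estimated counts were summed to 35596 genes and rounded, and TPM was summed per gene. Tests used edgeR 4.0.16 under R 4.3.3 (quasi-likelihood, TMM, filterByExpr, 1 fit over 4 groups, common biological coefficient of variation 0.426), with Benjamini-Hochberg adjustment over 12415 genes and a threshold of 0.05. The fit was tested on simulated data. Alternatives used DESeq2 1.42.0, limma 3.58.1 on log2(FPKM + 1 or 0.1), other scaling, filters and covariates, pool number as a block, and each library left out. Within groups, no 2 libraries agreed within sampling noise (chi-square per degree of freedom 7.01 to 67.3 over 50 pairs). Correlations across pools have two-sided permutation tests with 100000 draws.

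The members and gene lists were chosen with earlier results of these data known. Named were all 9 members, genes of 3 lists (further tetraspanins, partners, late endosome) that were called or else the 2 with the smallest p, the 3 genes nearest in pattern to Cd63 and to Cd9 (log2 CPM, prior count 2), and Apoe. Genes named among marker lists were named after their values were seen. Promoter sequences are from RefSeq.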

Additional observations from a re-analysis of the deposited data

How the results depend on the processing

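The call of Cd63 in Apoe-/- pools was retained, with a log2 difference of 0.90 to 0.97, in 10 of 13 other settings and lost in 3. It was lost without Apoe-/- non-phagocytic pools 2 and 5 (1.01, adjusted p 0.0759) and in limma on FPKM with a pseudocount of 1 or 0.1 (0.96 in both, adjusted p 0.083 and 0.092), where the tetraspanins called fell to 0, as they did in 6 of 12 repeats without 1 library (0 to 1 called; Cd63 at 0.82 to 1.03, adjusted p 0.0148 to 0.108). No other tetraspanin was called in any comparison or setting run. The cause of the lost calls was not tested.

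Counts of genes called moved more. Against 58 in the Apoe-/- sort comparison there were 137 without a filter on low counts, 168 in DESeq2, 94 with the Y-linked covariate, 16 without non-phagocytic pools 2 and 5, and 26 and 8 in limma on FPKM with pseudocounts of 1 and 0.1, and 18 to 89 without 1 library. Against 26 in the WT sort comparison there were 122 without a filter, 103 in DESeq2, 59 with the satellite-like share and 49 with the Y-linked level as covariates, 8 in limma on FPKM with a pseudocount of 0.1, and 13 to 64 without 1 library. Between genotypes, 4 genes in phagocytic libraries became 96 without a filter, 19 in DESeq2, 2 in a fit to those groups alone and 3 to 23 without 1 library. The 2 in non-phagocytic libraries became 16 without a filter and 1 in limma on FPKM with a pseudocount of 0.1. The count of 0 for the difference between sort effects became 17 without a filter and 2 in DESeq2.

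With pool number as a block the counts were 255 in the Apoe-/- sort comparison, 135 in the WT sort comparison, 7 and 2 between genotypes, and Cd63 kept its call in Apoe-/- (0.90, adjusted p 0.0173) as the only call among the 9 tetraspanins. Libraries of the same number correlated at 0.063 to 0.21 (median 0.16) in Apoe-/- and 0.040 to 0.42 (median 0.12) in WT. Those of different numbers correlated at -0.23 to 0.24 (median -0.03) in Apoe-/- and -0.34 to 0.27 (median -0.04) in WT. Same-numbered pairs were thus higher at the median, with overlapping ranges, and not every pair was above 0.1. Since the labels give no pairing, the number was not taken as one, and the main tests treat the sorts as independent.

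Uncalled values changed sign in 52 cases. Not all of them were near 0, and Cd37 in the phagocytic genotype comparison was at -0.25 in the main fit. With DESeq2, the log2 value was Cd81 -0.00057 in the WT sort comparison and Tspan4 1.2e-05 in the non-phagocytic genotype comparison. RLE scaling gave Cd81 -0.00064 in the WT sort comparison. Under the Y-linked covariate it was Cd9 -0.024 and Cd82 -0.032 in the Apoe-/- sort comparison, Cd37 0.0046 in the WT sort comparison and Cd9 0.015, Cd37 0.065 and Cd81 0.19 in the non-phagocytic genotype comparison. With length-scaled counts, the log2 value was Cd37 0.12 in the WT sort comparison, Cd37 0.054, Cd82 -0.017 and Tspan4 0.020 in the non-phagocytic genotype comparison and Tspan4 -0.0029 in the difference between sort effects. Limma on FPKM with a pseudocount of 0.1 gave Cd37 0.14 and Cd81 -0.016 in the WT sort comparison, Tspan4 -0.055 in the phagocytic genotype comparison and Cd82 -0.11 in the non-phagocytic genotype comparison. Under limma on FPKM with a pseudocount of 1 it was Cd37 0.14 and Cd81 -0.016 in the WT sort comparison, Tspan4 -0.055 in the phagocytic genotype comparison and Cd82 -0.11 in the non-phagocytic genotype comparison. With no filter on low counts, the log2 value was Tspan4 -0.0039 in the phagocytic genotype comparison. A fit to the compared groups alone gave Cd81 -0.016 in the WT sort comparison. Under pool number as a block it was Cd82 -0.055 in the Apoe-/- sort comparison, Cd37 0.024 in the WT sort comparison and Cd37 0.015 and Cd81 0.19 in the non-phagocytic genotype comparison. With the share of satellite-like reads as covariate, the log2 value was Cd9 -0.10 and Cd82 -0.12 in the Apoe-/- sort comparison, Cd81 -0.054 in the WT sort comparison, Cd37 0.066, Cd81 0.22 and Tspan3 0.031 in the phagocytic genotype comparison and Cd9 0.13, Cd37 0.36, Cd53 0.010, Cd81 0.46, Cd151 0.014 and Tspan4 0.18 in the non-phagocytic genotype comparison. The stricter filter gave Cd82 -0.0031 in the Apoe-/- sort comparison and Tspan4 0.0090 in the non-phagocytic genotype comparison. Under Apoe-/- non-phagocytic pools 2 and 5 left out it was Cd9 -0.16 and Cd53 -0.16 in the Apoe-/- sort comparison, Cd37 0.16, Cd53 0.12, Cd81 0.16 and Tspan4 0.20 in the non-phagocytic genotype comparison and Tspan3 -0.034 and Tspan4 -0.16 in the difference between sort effects. With both WT pool 4 libraries left out, the log2 value was Tspan4 -0.070 in the phagocytic genotype comparison and Cd82 -0.12 in the non-phagocytic genotype comparison. Leaving out 1 library also turned the sign of uncalled values, whose lowest and highest were, in the Apoe-/- sort comparison Cd53 (-0.019 to 0.26), Cd81 (-0.31 to 0.13), Cd82 (-0.22 to 0.13) and Cd9 (-0.10 to 0.15); in the WT sort comparison Cd37 (-0.23 to 0.20) and Cd81 (-0.22 to 0.27); in the phagocytic genotype comparison Cd81 (-0.40 to 0.069), Tspan3 (-0.22 to 0.0053) and Tspan4 (-0.071 to 0.22); in the non-phagocytic genotype comparison Cd151 (-0.34 to 0.19), Cd37 (-0.22 to 0.17), Cd81 (-0.31 to 0.18), Cd82 (-0.12 to 0.18) and Tspan4 (-0.14 to 0.13); in the difference between sort effects Cd37 (-0.42 to 0.029), Cd81 (-0.35 to 0.15), Cd9 (-0.36 to 0.033), Tspan3 (-0.025 to 0.21) and Tspan4 (-0.10 to 0.24).

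Cd151 had the fewest reads, and retinas were pooled, so spread between animals could not be seen. The Apoe-/- strain is given only as Apoe KO. Reads on overlapping genes of the opposite strand cannot be separated where strand is not given, which touches Cd37 (Tead2) and Tspan4 (Chid1). Cd9, Cd81, Cd82 and Cd151 also overlap genes of the opposite strand, which were not quantified. The alternatives with a Y-linked covariate and without WT pool 4 were chosen after seeing the data.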

Other observations

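The libraries also carried RNA of 2 tetraspanins known from the outer segments of photoreceptors. Prph2 averaged 311 ± 207 CPM in Apoe-/- phagocytic, 255 ± 81.8 CPM in Apoe-/- non-phagocytic, 212 ± 163 CPM in WT phagocytic and 201 ± 178 CPM in WT non-phagocytic libraries (SD, n = 6, 6, 5 and 5), and Rom1 averaged 207 ± 124, 194 ± 51.7, 160.1 ± 111 and 119.7 ± 81.6 CPM in those groups. The 10 rod markers, none at 0 throughout, summed to 1528 to 7373 CPM in Apoe-/- phagocytic, 2071 to 4675 CPM in Apoe-/- non-phagocytic, 1001 to 4621 CPM in WT phagocytic and 1142 to 5567 CPM in WT non-phagocytic libraries. Per length, Rom1 had a median of 91.9 TPM over all libraries, between Tspan4 (105 TPM) and Tspan3 (68.0 TPM). Prph2 had a median of 67.4 TPM, just below Tspan3.

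Among the further tetraspanins, Tspan14, which escorts the protease Adam10, had a median of 76.3 TPM and Tspan31 75.8 TPM, both above Tspan3. Tspan14 averaged 169 ± 54.5 CPM in Apoe-/- phagocytic against 214 ± 91.8 CPM in Apoe-/- non-phagocytic libraries, and 189 ± 44.9 CPM in WT phagocytic against 256 ± 69.1 CPM in WT non-phagocytic libraries, and was not called.

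Most members were read from 1 main transcript. Cd53-201 held 100.0% of the Cd53 TPM in every library, Cd81-201 a median of 97.7%, Tspan3-201 95.01% and the main Tspan4 transcript 87.6%, whereas Cd37, Cd82 and Cd151 were split among several and no transcript of Cd82 held a median above 36.7%. Cd9 had a retained-intron transcript, Cd9-203, at 11.8% ± 5.6 of its TPM in Apoe-/- phagocytic against 17.3% ± 8.3 in Apoe-/- non-phagocytic libraries, and 7.8% ± 2.6 in WT phagocytic against 13.7% ± 7.3 in WT non-phagocytic libraries (SD, n = 6 and 6, then 5 and 5). These shares were not tested, and their ranges overlapped, with 4.79% to 17.9% in Apoe-/- phagocytic against 8.41% to 32.4% in Apoe-/- non-phagocytic libraries.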
